A study of Mus musculus with 19 samples.

Results

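The matrix metalloproteinases (MMPs) and their tissue inhibitors (TIMPs) were followed at the RNA level in Kupffer cells, which are liver-resident macrophages, sorted from mice. The genes were taken by mouse symbol from the table of 33919 gene identifiers: the 7 MMP genes Mmp12, Mmp14, Mmp19, Mmp13, Mmp9, Mmp8 and Mmp2, and the 3 inhibitor genes Timp1, Timp2 and Timp3. All 10 were rows of the table, and 9 reached the filter on low values used for testing (at least 10 normalised reads in at least 6 of 19 libraries). Timp1 did not. The cells came from livers of female C57BL/6 wild-type mice, were freed with collagenase D and sorted by flow cytometry, and their RNA was amplified by SMART-seq. Chow_EmKCs (6 libraries) are CLEC2+ TIMD4+ Kupffer cells of mice on a chow diet, MCD_EmKCs (6 libraries) are CLEC2+ TIMD4+ Kupffer cells of mice fed an MCD diet, and MCD_MoKCs (7 libraries) are CLEC2+ TIMD4- Kupffer cells of MCD-fed mice. MCD stands for a diet deficient in methionine and choline, which lasted 4 weeks and is a standard way to bring about steatohepatitis in mice, and EmKC and MoKC are the field's terms for embryo-derived and monocyte-derived Kupffer cells. The sort, not a lineage tracer, defines the subsets, there are no chow-fed MoKCs, and no age is given for the mice.

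MMPs are zinc-dependent endopeptidases that cut extracellular matrix, cytokines and other proteases. Most are made as inactive precursors whose propeptide has to be removed, and TIMPs bind the active site of the mature enzymes, so RNA levels do not give activity. In the liver, macrophages are a known source of MMPs, while hepatic stellate cells are a known source of TIMPs and of the collagens that MMPs cut.

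Total reads per library ran from 11642240 to 30983487, and 14643 to 16847 genes had at least 1 read. The sorted cells carried the Kupffer cell markers: the summed level of 9 markers, in normalised reads, was 454050 to 546446 for Chow_EmKCs, 402987 to 447788 for MCD_EmKCs and 128246 to 166699 for MCD_MoKCs. Timd4, the gene of the sort marker, was at 6584 or more in every EmKC library and at 258 to 743 in MCD_MoKCs. The mitochondrial share of reads moved with the diet, at 0.511 to 1.05% in Chow_EmKCs against 0.155 to 0.317% in MCD_EmKCs, and its part in that comparison was not tested. MCD_MoKCs 1 to 3 stood apart from MCD_MoKCs 4 to 7 in the same share (0.534 to 0.729% against 0.244 to 0.359%), so the calls that involve MCD_MoKCs were also made without these 3 libraries. In bulk samples such as these, fewer cells of a type and less RNA per cell cannot be told apart. No label ties libraries to separate mice: the p-values speak only of variation among libraries, which may be technical.

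Promoter sequences are shown for Mmp12, Mmp13 and Mmp14, the 3 members with a promoter entry that rose in MCD_EmKCs against Chow_EmKCs. Each sequence is the 200 bases before the transcription start in RefSeq's annotation of GRCm38.p6, on the + strand, written 5′ to 3′. Capitals mark matches, on either strand, to any of 4 motifs. The first is the AP-1 site, searched for as TGANTCA. The second is the PEA3 site of ETS factors, for which the letters were AGGAAG. The third is the TATA box, with the letters TATAAA. The fourth is the GC box bound by SP1, with the letters GGGCGG, and no motif holds another. The windows lie at chr9:7347174-7347373 for Mmp12 (the downstream of 2 annotated starts, within an intron of the longer transcript), at chr9:7272314-7272513 for Mmp13 and at chr14:54431398-54431597 for Mmp14, and none holds an annotated exon of an MMP or TIMP gene.
Mmp12 downstream start: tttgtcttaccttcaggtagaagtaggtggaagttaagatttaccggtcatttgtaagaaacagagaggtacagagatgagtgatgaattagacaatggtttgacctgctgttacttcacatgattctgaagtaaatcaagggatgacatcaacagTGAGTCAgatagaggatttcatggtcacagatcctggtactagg
Mmp13: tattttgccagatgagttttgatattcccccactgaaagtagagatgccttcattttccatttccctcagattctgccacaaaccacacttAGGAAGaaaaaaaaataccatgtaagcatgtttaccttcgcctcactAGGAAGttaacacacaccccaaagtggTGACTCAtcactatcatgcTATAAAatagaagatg
Mmp14: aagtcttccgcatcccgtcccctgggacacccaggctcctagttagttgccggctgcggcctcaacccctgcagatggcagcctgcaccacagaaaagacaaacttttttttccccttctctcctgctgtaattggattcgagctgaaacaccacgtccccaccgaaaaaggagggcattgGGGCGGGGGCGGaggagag
AP-1 and ETS sites are textbook features of several MMP promoters. The Mmp12 sequence holds 1 AP-1 match, 44 to 38 bases before the start. The Mmp13 sequence holds 1 AP-1 match (35 to 29 bases before the start), 2 PEA3 matches (109 to 104 and 62 to 57 bases before) and a TATA box match (16 to 11 bases before). The Mmp14 sequence holds none of the first 3 motifs in these 200 bases and a pair of adjacent GC boxes, 19 to 14 and 13 to 8 bases before the start.

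**Figure D1:**
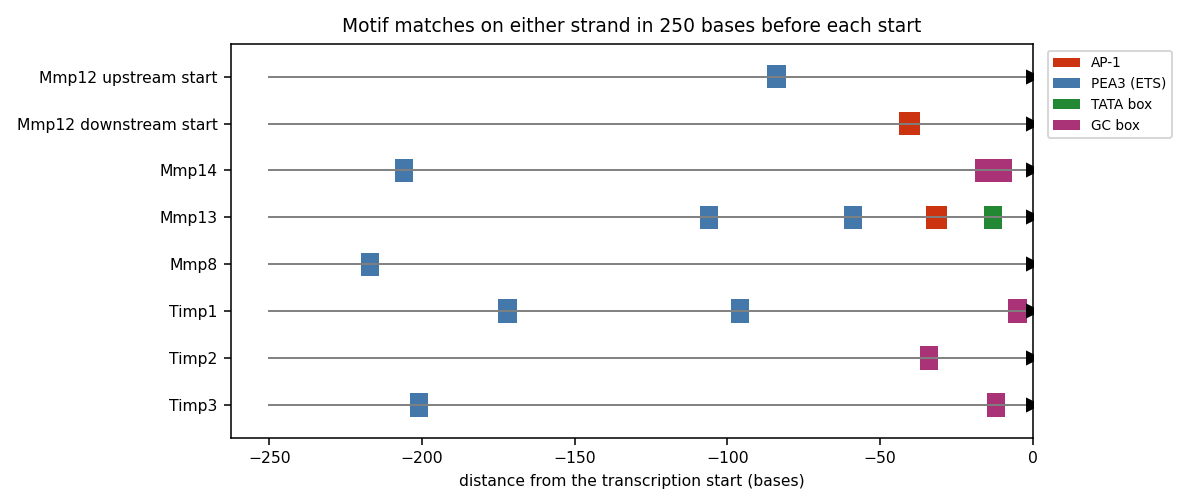
Matches to 4 motifs, on either strand, in the 250 bases before 8 annotated transcription starts of 7 MMP and TIMP genes; the horizontal axis is the distance from the start in bases and the arrowhead marks the start. AP-1 matches appear in 2 of the 8 windows, Mmp12 (downstream start) and Mmp13.

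Windows of 250 bases were searched for 8 starts of 7 members, those with an entry in the RefSeq table; Mmp2, Mmp9 and Mmp19 had none. Among 32817 promoter windows of the same length, 6.75% held an AP-1 match, 29.5% a PEA3 match, 12.4% a TATA box match and 32.7% a GC box match. The upstream start of Mmp12 held a PEA3 match and no AP-1 match. Mmp8 held a PEA3 match 220 to 215 bases before its start, and the 250-base window of Mmp14 held 1 PEA3 match. Timp1 held 2 PEA3 matches and Timp3 held 1, while Timp2 held none, and each of the 3 TIMP windows held 1 GC box match. These are matches of letters, not measured binding.

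The MCD diet comparison within the embryo-derived subset asked which members differ between MCD_EmKCs and Chow_EmKCs. Of the 9 members tested, 4 rose and none fell (limma, adjusted p under 0.05 over 14875 genes). Over all genes tested, 4.08% passed, 2.5% higher and 1.58% lower. The ranges of the 2 groups did not overlap for 3 members (Mmp12, Mmp14 and Mmp13), all higher, against 1.55% of all genes in that direction and 1.41% in the other. The median log2 fold change of the tested members was 1.48, against -0.04 for all genes. The summed level of 8 hepatocyte markers moved with the diet too, at 3697 to 11488 normalised reads in Chow_EmKCs and 574 to 2716 in MCD_EmKCs, and its part in these differences was not tested.

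The difference between the subsets under the MCD diet was taken as MCD_MoKCs against MCD_EmKCs. Here 3 of 9 members were higher and none lower, where 10.5% of all genes passed (5.64% higher, 4.9% lower). Ranges were separate for Mmp14, Mmp19 and Mmp13, all higher, against 2.62% of all genes upward and 2.25% downward. The members' median log2 fold change was 1.21, against 0.02 for all genes. Markers of other blood cells moved with the subset. The summed T and NK cell markers (7 genes) were at 12.9 to 179 normalised reads in MCD_EmKCs and 266 to 561 in MCD_MoKCs, and the summed dendritic cell markers (6 genes) at 218 to 1045 and 788 to 2149. Ccr2, a chemokine receptor of monocytes, was at 95.7 or below in MCD_EmKCs and 479 to 1107 in MCD_MoKCs. The part of these cells in the differences was not tested. Setting MCD_MoKCs against Chow_EmKCs, which changes diet and subset together, gave 5 members higher and 1 lower, where 16.8% of all genes passed (8.68% higher, 8.08% lower). Separate ranges were found for those 6 members, against 4.48% of all genes upward and 3.5% downward. The median of the members was 3.00 and that of all genes -0.01. The 3 comparisons share groups of libraries and are not independent of each other. Without MCD_MoKCs 1 to 3, Mmp14 and Mmp19 were called against MCD_EmKCs. Against Chow_EmKCs, Mmp12, Mmp14, Mmp19, Mmp13 and Mmp8 were called. All were higher, and all were among those called with the 3 libraries. Over all genes, fewer were called against MCD_EmKCs without these libraries as well, so the loss of calls is not particular to the members.

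**Figure D2:**
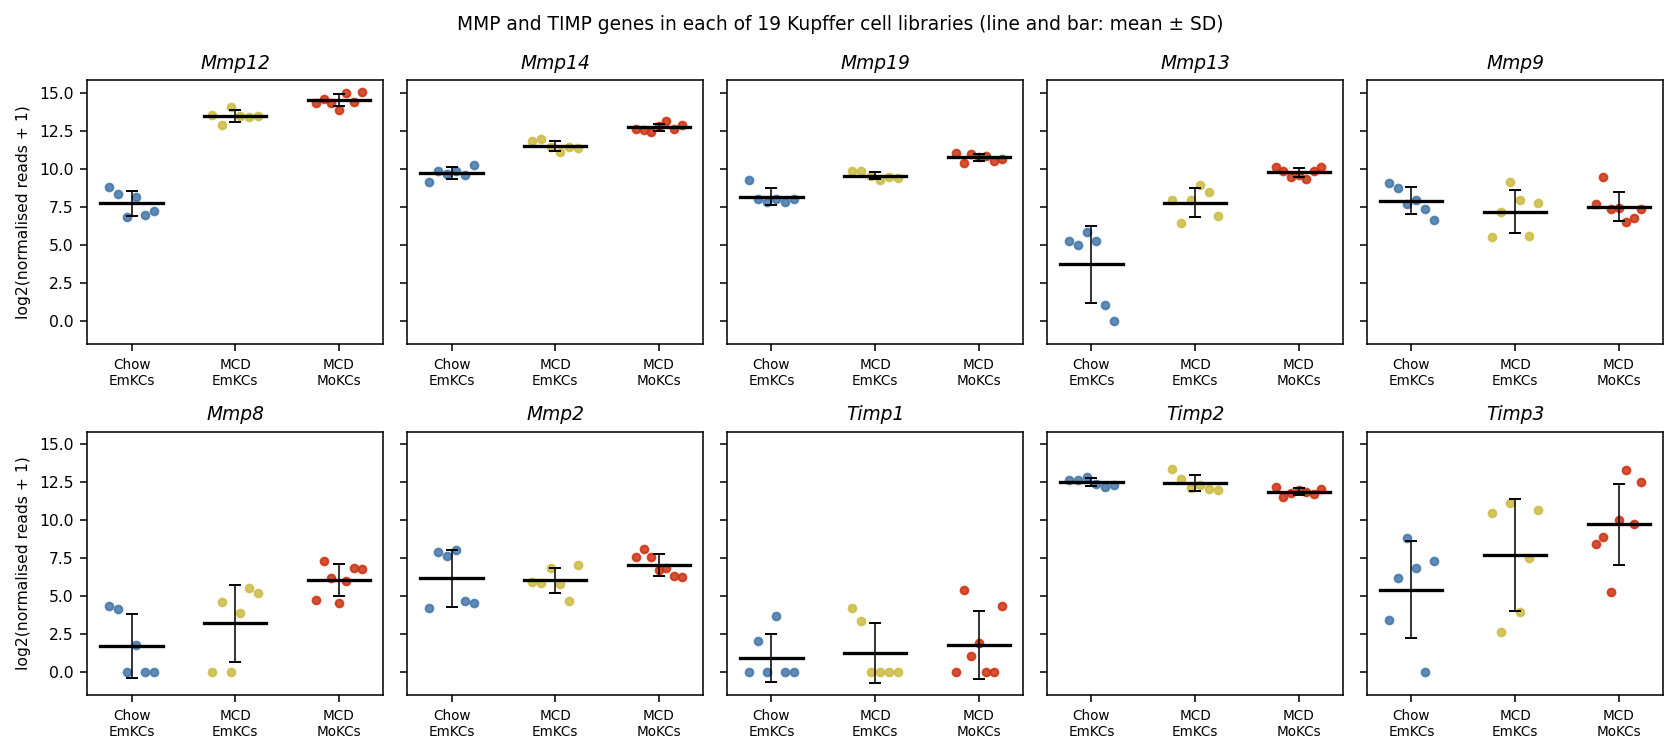
Level of each of the 10 genes in each library, as log2(normalised reads + 1); points are libraries, the horizontal line is the group mean and the bar its SD (6, 6 and 7 libraries). Mmp12, Mmp14, Mmp19 and Mmp13 step up from Chow_EmKCs to MCD_EmKCs to MCD_MoKCs, the group means of Timp2 differ by less than 1 log2 unit, and Timp3 spreads widely within each group.

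Mmp12 encodes the macrophage metalloelastase, which cuts elastin and several other matrix proteins (ENSMUSG00000049723, GRCm38 chromosome 9, 7344381 to 7369499, + strand). In Chow_EmKCs it lay between 114 and 442 normalised reads, with a median of 220. In MCD_EmKCs it lay between 7593 and 17394 (median 11371), and in MCD_MoKCs between 15247 and 33579 (median 21127). Every MCD library was far above every chow library, while MCD_EmKCs 3 was above 1 of the 7 MCD_MoKCs libraries, number 4, so the MCD groups overlapped. The group mean was 48.8 times that of Chow_EmKCs in MCD_EmKCs and 99.2 times in MCD_MoKCs. On the log2(value + 1) scale this was 5.75 (SE 0.29, limma adjusted p = 4.97e-12) for MCD_EmKCs and 6.77 (SE 0.28, adjusted p = 1.73e-14) for MCD_MoKCs, each against Chow_EmKCs. The further step from MCD_EmKCs to MCD_MoKCs was 1.02 (SE 0.28, limma adjusted p = 0.0183). That last call was lost without MCD_MoKCs 1 to 3 (1.08, limma adjusted p = 0.0696). The neighbouring Mmp1b, which shares 157 exonic bases with Mmp12 on the other strand, reached at most 26.9 normalised reads.

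Mmp14 encodes MT1-MMP, a collagenase anchored in the cell membrane that also activates pro-MMP2 (ENSMUSG00000000957, GRCm38 chromosome 14, 54431612 to 54445364, + strand). It lay between 554 and 1208 normalised reads in Chow_EmKCs (median 870), between 2171 and 3959 in MCD_EmKCs (median 2770) and between 5571 and 8885 in MCD_MoKCs (median 6400). The 3 groups were fully separate from one another. Mmp14 rose by 1.78 on the log2 scale in MCD_EmKCs against Chow_EmKCs (SE 0.18, limma adjusted p = 1.9e-07). It was higher by a further 1.22 in MCD_MoKCs against MCD_EmKCs (SE 0.17, limma adjusted p = 1.34e-05), a ratio of means of 2.31. Without MCD_MoKCs 1 to 3 the latter difference was 1.35 (limma adjusted p = 0.000115).

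Mmp19 encodes a secreted MMP that cuts basement membrane components (ENSMUSG00000025355, GRCm38 chromosome 10, 128790910 to 128800824, + strand). Chow_EmKCs lay between 224 and 626 normalised reads (median 259), MCD_EmKCs between 608 and 917 (median 718) and MCD_MoKCs between 1358 and 2104 (median 1732). The single library Chow_EmKCs 1, at 626, reached into the range of MCD_EmKCs; the other 5 were at 264 or below. MCD_MoKCs were above all EmKC libraries. The log2 fold change was 1.37 in MCD_EmKCs against Chow_EmKCs (SE 0.23, limma adjusted p = 0.000332) and 1.60 without Chow_EmKCs 1. In MCD_MoKCs against MCD_EmKCs it was 1.21 (SE 0.22, limma adjusted p = 0.000346), and 1.16 without MCD_MoKCs 1 to 3. Mmp19 shares 1001 exonic bases with Tmem198b on the other strand, which lay between 118 and 752 normalised reads, so part of these reads cannot be assigned to either gene.

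Mmp13 encodes the main interstitial collagenase of rodents (ENSMUSG00000050578, GRCm38 chromosome 9, 7272514 to 7283331, + strand). In Chow_EmKCs it was barely detected, with 0 to 57.2 normalised reads (median 33.5) and 178 reads in all 6 libraries together. MCD_EmKCs lay between 87.8 and 497 (median 248), and MCD_MoKCs between 642 and 1101 (median 947). All 3 ranges were separate. Mmp13 rose in MCD_EmKCs by 4.06 on the log2(value + 1) scale (SE 0.78, limma adjusted p = 0.00266), a ratio of means of 9.50. Because Chow_EmKCs 5 and 6 held 1 and 0 reads, the fitted value depends on the pseudocount and on which libraries enter: it was 2.11 among libraries numbered up to 33 and 6.00 among those numbered from 37. Between MCD_EmKCs and MCD_MoKCs the log2 fold change was 1.98 with a 95% interval of 0.43 to 3.53, which missed the threshold (limma adjusted p = 0.10) although the ranges were separate. It passed in 5 of 13 other settings. These were a pseudocount of 5 (limma adjusted p = 0.012), edgeR (adjusted p = 0.0483), DESeq2 (adjusted p = 0.00861), a limma fit of the 2 groups alone (adjusted p = 0.000447) and libraries numbered up to 33 (limma adjusted p = 0.00566). It also passed without Chow_EmKCs 6 (limma adjusted p = 0.0246). The difference without MCD_MoKCs 1 to 3 was 1.94 (limma adjusted p = 0.278).

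Mmp8, the neutrophil collagenase (ENSMUSG00000005800, GRCm38 chromosome 9, 7558456 to 7568485, + strand), was low throughout. It ran from 0 to 19.8 normalised reads in Chow_EmKCs, where 3 of 6 libraries were at 0, from 0 to 45.8 in MCD_EmKCs (2 of 6 at 0) and from 22.8 to 158 in MCD_MoKCs. MCD_MoKCs were above all Chow_EmKCs libraries and overlapped MCD_EmKCs. The log2 fold change of MCD_MoKCs against Chow_EmKCs was 4.34 (SE 1.04, limma adjusted p = 0.00358). It rests on 51 reads in Chow_EmKCs, and with edgeR the adjusted p was 0.0554. The other differences of Mmp8 were 1.48 for MCD_EmKCs against Chow_EmKCs (limma adjusted p = 0.545) and 2.86 for MCD_MoKCs against MCD_EmKCs (limma adjusted p = 0.0803). When MCD_MoKCs 1 to 3 were left out, MCD_MoKCs differed by 4.33 from Chow_EmKCs (limma adjusted p = 0.0243) and by 2.84 from MCD_EmKCs (limma adjusted p = 0.233).

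Mmp9 and Mmp2 are the gelatinases, which cut denatured collagen and type IV collagen. Mmp9 (ENSMUSG00000017737, GRCm38 chromosome 2, 164940780 to 164955850, + strand) lay between 100 and 538 normalised reads in Chow_EmKCs, between 44 and 564 in MCD_EmKCs and between 89.2 and 719 in MCD_MoKCs, and all 3 ranges overlapped. Its log2 fold change was -0.72 for MCD_EmKCs against Chow_EmKCs, with a 95% interval of -1.88 to 0.44, and 0.33 for MCD_MoKCs against MCD_EmKCs, with an interval of -0.79 to 1.45. Neither passed (limma adjusted p = 0.583 and 0.787). Mmp2 (ENSMUSG00000031740, GRCm38 chromosome 8, 92827291 to 92853420, + strand), which is known in liver mainly from stellate cells, lay between 17.8 and 263, between 25.3 and 131 and between 75.3 and 276 in the same order of groups. In Chow_EmKCs it split into 3 libraries at 25 or below and 3 at 198 or above. Its log2 fold changes were -0.13, with a 95% interval of -1.48 to 1.21, and 1.03, with an interval of -0.27 to 2.32 (limma adjusted p = 0.951 and 0.355). The difference from MCD_EmKCs without MCD_MoKCs 1 to 3 was -0.17 for Mmp9 and 0.49 for Mmp2 (limma adjusted p = 0.935 and 0.816).

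The library with the most neutrophil marker RNA, MCD_MoKCs 2, also had the highest Mmp9 and Mmp8. It held the highest Mmp9 (719 normalised reads, the other 6 at 209 or below) and the highest Mmp8 (158). Its summed level of the 10 neutrophil markers was 2209 normalised reads, against 74.7 to 715 in the other MCD_MoKCs, 18.7 to 151 in Chow_EmKCs and 34.3 to 218 in MCD_EmKCs. S100a8, S100a9 and Retnlg, 3 of the 10 markers, were all highest in it, at 1035, 873 and 272 normalised reads. S100a8 and S100a9 thus made up most of its sum. In several other libraries the neutrophil sum and Mmp9 or Mmp8 did not go together. MCD_MoKCs 5 had the second-highest neutrophil sum of its group, 715, with the lowest Mmp9, 89.2. MCD_MoKCs 6 had the lowest sum, 74.7, with the second-highest Mmp8, 113. Chow_EmKCs 1 had Mmp9 at 538 with a sum of 51.5. Mpo was at 0 in every library and Ngp was at 0 in both EmKC groups. Ly6g, Elane and Camp reached at most 13.8, 0.949 and 0.9 normalised reads in MCD_MoKCs. Their highest Chow_EmKCs values were above these, at 23.7, 13.9 and 5.89. Ltf and Cxcr2 went the other way, with at most 21.6 and 23.1 in MCD_MoKCs and 3.72 and 0.99 in Chow_EmKCs. The part of neutrophil RNA in these values was not tested.

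**Figure D3:**
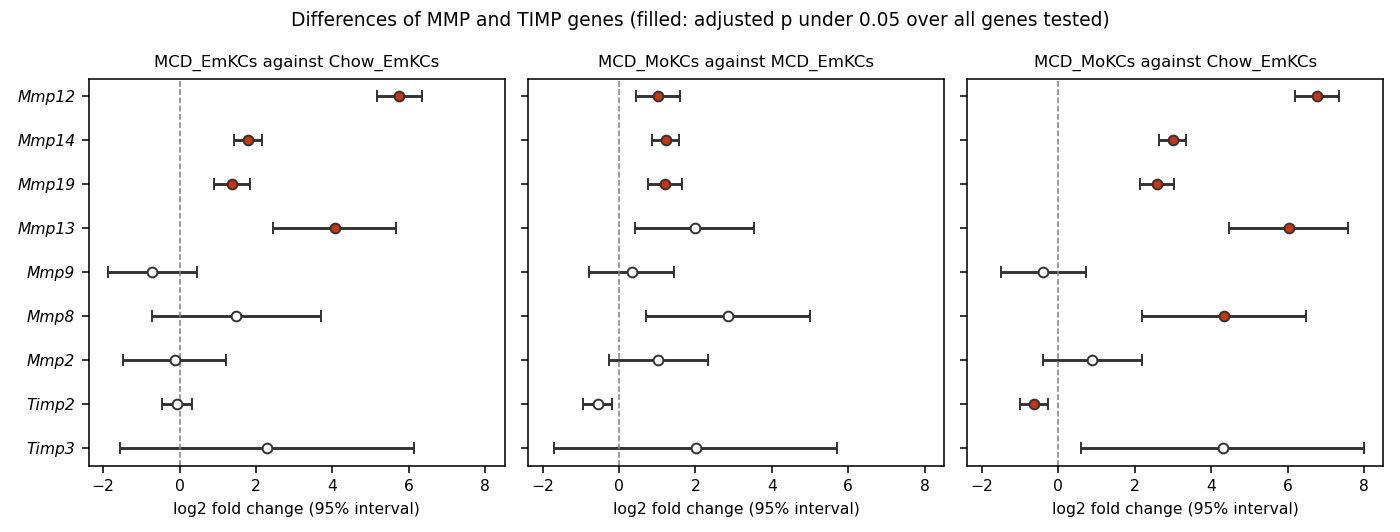
Log2 fold change of the 9 tested genes in the 3 comparisons, with 95% intervals from limma on log2(normalised reads + 1); filled points passed an adjusted p of 0.05 over all genes tested. The intervals of Mmp12, Mmp14 and Mmp19 are narrow and lie above 0 in all 3 panels, and that of Timp3 spans several log2 units in each.

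Timp2 encodes the inhibitor that, at the cell surface, also takes part with MT1-MMP in the activation of pro-MMP2 (ENSMUSG00000017466, GRCm38 chromosome 11, 118301069 to 118355740, - strand). In Chow_EmKCs it lay between 4722 and 7380 normalised reads (median 5865). MCD_EmKCs lay between 4151 and 10699 (median 4707) and MCD_MoKCs between 2954 and 4669 (median 3697). The EmKC groups overlapped broadly, and all MCD_MoKCs were below all Chow_EmKCs. The log2 fold change was -0.08 for MCD_EmKCs against Chow_EmKCs, with a 95% interval of -0.47 to 0.31 (limma adjusted p = 0.894). MCD_MoKCs against Chow_EmKCs gave a lower Timp2, at -0.63 (SE 0.18, limma adjusted p = 0.0155), and this call was lost without MCD_MoKCs 1 to 3 (-0.60, limma adjusted p = 0.0696). Against MCD_EmKCs the difference was -0.56 (SE 0.18, limma adjusted p = 0.0506), just on the other side of the threshold, and -0.52 without MCD_MoKCs 1 to 3 (limma adjusted p = 0.182).

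Timp3 encodes the inhibitor that binds to the matrix and also blocks ADAM17 and several ADAMTS enzymes (ENSMUSG00000020044, GRCm38 chromosome 10, 86300372 to 86349506, + strand). It lay between 0 and 457 normalised reads in Chow_EmKCs (median 92.5), between 5.35 and 2199 in MCD_EmKCs (median 819) and between 38.9 and 10233 in MCD_MoKCs (median 877). All 3 ranges overlapped, and the coefficient of variation within a group was 125%, 105% and 145%. None of its differences passed: on the log2 scale they were 2.29 (SE 1.82, limma adjusted p = 0.594) for MCD_EmKCs against Chow_EmKCs and 4.31 (SE 1.75, limma adjusted p = 0.112) for MCD_MoKCs against Chow_EmKCs. With edgeR and DESeq2 on the recovered reads the latter was called (adjusted p = 0.0291 and 0.00513). Without MCD_MoKCs 1 to 3 it was 5.95 (limma adjusted p = 0.0665).

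The MCD_MoKCs mean of Timp3, 2674 ± 3866 normalised reads (SD, n = 7), was set by libraries 5 and 7, at 10233 and 5730. Without them it was 551 ± 397 (SD, n = 5), below the MCD_EmKCs mean of 910 ± 958 (SD, n = 6). Of the 8 markers of sinusoidal endothelial cells, 6 had both libraries among their 3 highest MCD_MoKCs values, and Kdr, Oit3 and Pecam1 had them as the highest pair. The summed endothelial markers reached 10683 and 10880 in these libraries, against 3111 to 8991 in the other MCD_MoKCs. In MCD_EmKCs, where Timp3 was at most 2199, the sum was 8767 to 10881, but its make-up differed. Stab2, Cdh5 and Pecam1 were lower in both libraries than in any MCD_EmKCs library (Stab2 2765 and 3587 against 4679 or more). Kdr, Clec4g, Oit3, Tek and Ptprb were higher in both than in any MCD_EmKCs library (Clec4g 2398 and 1266 against at most 648). MCD_MoKCs 5 also had the highest summed level of the 11 stellate cell and fibroblast markers, 1474 against 294 to 868 in the others. The part of other cells' RNA in Timp3 was not tested.

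**Figure D4:**
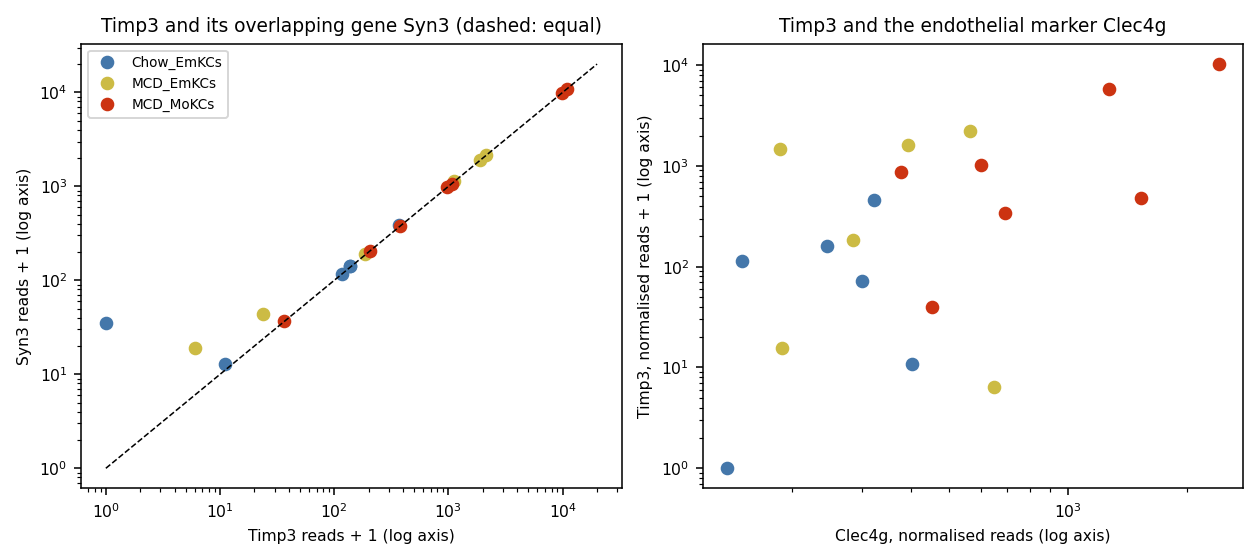
Left, reads + 1 of Timp3 and of Syn3 in each of 19 libraries, both on log axes with a dashed line of equality; right, Timp3 normalised reads + 1 against the endothelial marker Clec4g in normalised reads, both on log axes. Timp3 and Syn3 lie on the line except at low counts, and MCD_MoKCs 5 and 7 lie highest on the Timp3 axis of the right panel.

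Timp3 lies inside Syn3, which is on the opposite strand and shares 1733 exonic bases with it. Syn3 had at least as many reads as Timp3 in all 19 libraries and exactly as many in 6, with an excess of at most 52 reads (29815 reads in all for Syn3, 29628 for Timp3). The value listed for each of these genes therefore counts nearly the same reads, and how many come from which strand cannot be told.

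Timp1, the inhibitor often induced in injured liver (ENSMUSG00000001131, GRCm38 chromosome X, 20870166 to 20874735, + strand), was close to undetected. It was at 0 in 11 of the 19 libraries, 4 of 6 in Chow_EmKCs, 4 of 6 in MCD_EmKCs and 3 of 7 in MCD_MoKCs. The highest values were 11.8, 18.1 and 41.0 normalised reads in the same order. With no filter on low values its log2 fold changes were 0.33, 0.55 and 0.87 in the 3 comparisons, each above the threshold (limma adjusted p = 0.965, 0.837 and 0.678). A difference of Timp1 was not detectable at this depth.

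To compare levels between genes, normalised reads were divided by the length of the principal transcript in kilobases. This length leaves out introns, and whether reads in introns or on the other strand were counted for a gene is not given. In Chow_EmKCs, Timp2 stood highest at 1593 ± 276 normalised reads per kb (SD, n = 6), above Mmp14 at 335 ± 83.3, with separate ranges. Mmp14 in turn was above Mmp19 (91.2 ± 45.8), Mmp9 (88.1 ± 52.9) and Mmp12 (67.1 ± 36.9), whose ranges overlapped one another. Mmp2, Timp3, Mmp13, Timp1 and Mmp8 followed between 41.3 and 2.73, each overlapping its neighbour. In MCD_EmKCs the order began with Mmp12 at 3272 ± 878 per kb, followed by Timp2 at 1589 ± 687 and Mmp14 at 1146 ± 254, and neighbours among these overlapped. Mmp14 was separate from Mmp19 at 222 ± 37.8, and the other members lay below. In MCD_MoKCs (n = 7) Mmp12 at 6652 ± 1844 per kb was separate from Mmp14 at 2645 ± 438, and Mmp14 from Timp2 at 1024 ± 153. Timp3 (566 ± 819), Mmp19 (514 ± 80.8) and Mmp13 (332 ± 69.1) came next, with Mmp9, Mmp2, Mmp8 and Timp1 at 73.1 or below. Mmp12 thus went from the fifth place in Chow_EmKCs to the first in both MCD groups. With the length of all annotated exons, which lowers the per-kb level of Mmp12 to 33.4, 1631 and 3315 and that of Mmp14 to 146, 499 and 1152 in the 3 groups, Mmp12 was the sixth in Chow_EmKCs. It was still the first in both MCD groups, with Timp2 close behind it in MCD_EmKCs at 1513 per kb.

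Summed per kb, the 7 MMP genes amounted to 636 ± 110 in Chow_EmKCs, 4837 ± 848 in MCD_EmKCs and 10298 ± 2118 in MCD_MoKCs (SD, n = 6, 6 and 7), with separate ranges. The 3 TIMP genes together were at 1625 ± 298, 1787 ± 734 and 1600 ± 842 per kb, with overlapping ranges. The MMP sum over the TIMP sum was 0.398 in Chow_EmKCs (0.269 to 0.474 over libraries), 2.96 in MCD_EmKCs (1.59 to 3.89) and 7.32 in MCD_MoKCs (4.16 to 11.0). The 3 groups did not overlap in it. Over Timp2 alone, without Timp3, whose reads cannot be told from those of Syn3, the ratio was 0.405 (0.282 to 0.487), 3.43 (1.77 to 5.43) and 10.3 (7.19 to 13.2). The MCD_MoKCs ratio without libraries 1 to 3 was 5.99 over all 3 TIMP genes and 10.5 over Timp2 (n = 4). The 7 genes are not all MMPs expressed here: Mmp27 stood at 345 per kb in Chow_EmKCs, above Mmp14. Summed over all 23 MMP genes of the table the level was 1063 ± 198, 5371 ± 860 and 10639 ± 2135 per kb. The ratio to all 4 TIMP genes was then 0.668 (0.403 to 0.775), 3.28 (1.84 to 4.13) and 7.58 (4.25 to 11.5), again without overlap. The share of Mmp12 in that sum was 5.98%, 60.2% and 61.7%. With the length of all annotated exons, the ratios of the 7 MMP to the 3 TIMP genes were 0.260, 1.72 and 4.44. Mmp12 made up 10.1% of the sum of the 7 MMP genes in Chow_EmKCs, 66.9% in MCD_EmKCs and 63.8% in MCD_MoKCs. Leaving Mmp12 out of the 7, the ratio was 0.357, 0.942 and 2.64. For the pair at the cell surface, Mmp14 over Timp2 per kb was 0.219, 0.775 and 2.62, with libraries from 0.121 to 0.339, from 0.476 to 0.919 and from 1.96 to 3.43. These sums and ratios are descriptions with no test. They compare RNA, not protein.

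**Figure D5:**
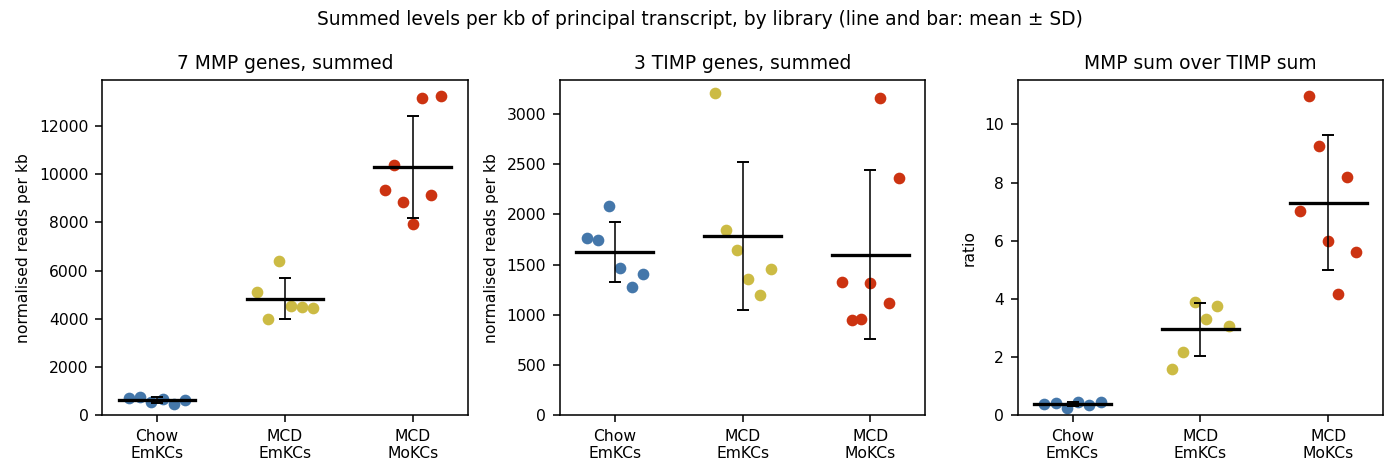
Summed level of the 7 MMP genes, of the 3 TIMP genes (both in normalised reads per kb of principal transcript) and their ratio, by library; the line is the group mean and the bar its SD (6, 6 and 7 libraries). The MMP sum and the ratio step up without overlap from group to group, and the TIMP sum does not.

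The column numbers of the libraries fall into a set up to 33 and a set from 37, each of which holds libraries of all 3 groups; nothing in the labels says what the numbers stand for. In MCD_EmKCs against Chow_EmKCs, the log2 fold change of Mmp12 was 5.51 in the first set and 5.99 in the second, that of Mmp14 2.18 and 1.38, and that of Mmp19 1.35 and 1.40. Mmp19 missed the threshold in the first set (limma adjusted p = 0.0653). In MCD_MoKCs against MCD_EmKCs the values were 0.91 and 1.24 for Mmp12, 0.99 and 1.45 for Mmp14, 1.08 and 1.25 for Mmp19, and -0.87 and -0.24 for Timp2. Mmp12 did not pass in the first set (limma adjusted p = 0.24). In MCD_MoKCs against Chow_EmKCs, Mmp8 was at 2.91 and 6.23, without a call in the first set (limma adjusted p = 0.251). Timp2 was at -0.85 and -0.40 there, without a call in the second (limma adjusted p = 0.215).

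Of the other 17 MMP and TIMP genes in the table, 3 reached the filter on low values: Mmp23, Mmp24 and Mmp27. Mmp27, whose gene lies downstream of Mmp8 on chromosome 9, was at 574 ± 224 normalised reads in Chow_EmKCs (SD, n = 6), 801 ± 309 for MCD_EmKCs (n = 6) and 452 ± 133 for MCD_MoKCs (n = 7). Its difference between MCD_MoKCs and MCD_EmKCs was -0.81 on the log2 scale and did not pass (limma adjusted p = 0.069). Mmp23 fell from 50.1 ± 37.8 in Chow_EmKCs to 5.79 ± 11.5 in MCD_MoKCs (log2 fold change -3.64, limma adjusted p = 0.025), the only call among the 3 genes in the 3 comparisons. It was also called without MCD_MoKCs 1 to 3 (-3.86, limma adjusted p = 0.0412). Mmp28 was under the filter. With no filter it was higher in MCD_MoKCs by 3.19 against MCD_EmKCs and by 3.34 against Chow_EmKCs (limma adjusted p = 0.033 and 0.0149), at a mean of 32.5 normalised reads and a median of 6.66, against means of 1.98 and 0.554. Mmp1a, Mmp10 and Timp4 had no read in any library.

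Genes that activate, bind or tether MMPs were read from a list of 15, of which 10 were tested. In MCD_EmKCs against Chow_EmKCs 3 rose and none fell, where 2.5% of all genes rose and 1.58% fell. Their median log2 fold change in the 3 comparisons was 1.61, 0.43 and 2.66, against -0.04, 0.02 and -0.01 for all genes. The tetraspanin Cd63, which binds TIMP-1 at the cell surface, rose by 4.40 on the log2 scale (SE 0.25, limma adjusted p = 4.97e-12). Plat, tissue plasminogen activator, rose by 4.27 from 2.10 ± 4.17 normalised reads (limma adjusted p = 0.00266), and Plaur, the receptor of the plasminogen activator urokinase, by 1.74 (limma adjusted p = 1.65e-07). In MCD_MoKCs against MCD_EmKCs 4 were higher and none lower (5.64% and 4.9% of all genes). Among them were Thbs1, thrombospondin-1, by 4.49, Cd63 by 2.64 and Plaur by 1.78 (limma adjusted p = 0.0101, 1.74e-08 and 2.51e-08). These 3 genes without MCD_MoKCs 1 to 3 were at 4.77, 2.48 and 1.82 and passed (limma adjusted p at most 0.0302). Against Chow_EmKCs 6 were higher in MCD_MoKCs and none lower (8.68% and 8.08% of all genes), led by Cd63 (7.05), Thbs1 (5.98) and Plat (5.06), with Plaur at 3.52 (largest limma adjusted p of these 4, 0.000463). Reck, a membrane-bound MMP inhibitor, was too low to test, at 17.2 ± 36.3, 2.44 ± 3.20 and 2.97 ± 7.39 normalised reads. Thbs1 is also abundant in platelets. The summed level of 6 platelet markers was 203 to 651 in Chow_EmKCs, 913 to 1525 in MCD_EmKCs and 1596 to 4621 in MCD_MoKCs, most of it Pf4 (medians 374, 875 and 2637). The medians of Ppbp, Itga2b, Gp9 and Gp1bb were at 16.8 or below in each group. The median of Treml1 was 1.56, 65.5 and 60.8, and its highest value 42.5, 312 and 509. The part of platelet RNA was not tested.

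The related ADAM and ADAMTS proteases numbered 14, with 10 tested. Their median log2 fold change was 0.13, 0.11 and 0.53 in the 3 comparisons, against -0.04, 0.02 and -0.01 for all genes. The calls are to be read against 4.08%, 10.5% and 16.8% of all genes called. In MCD_EmKCs against Chow_EmKCs, Adam8 (3.25, limma adjusted p = 0.0448) and Adam9 (0.99, limma adjusted p = 0.028) rose, and Adamdec1 fell (-0.88, limma adjusted p = 0.0221). In MCD_MoKCs against MCD_EmKCs 4 were higher and none lower. Adam8, a sheddase of activated leukocytes, went from 159 ± 109 to 2900 ± 1138 normalised reads (log2 fold change 4.53, limma adjusted p = 0.00128). Adamts9 was higher by 3.78, Adam15 by 3.48 and Adam19 by 3.48, with limma adjusted p of 0.0297, 2.83e-08 and 0.0093. Without MCD_MoKCs 1 to 3, Adam8 and Adam15 passed, Adamts9 and Adam19 did not (limma adjusted p = 0.237 and 0.0773), and Adamdec1 was called lower (-0.88, limma adjusted p = 0.0242). The diet call of Adam8 was lost in that fit as well. Against Chow_EmKCs, Adam8 (7.78), Adam19 (3.81) and Adam15 (2.99) were higher and Adamdec1 was lower (-1.52), with the largest limma adjusted p at 0.00263, and all 4 passed without MCD_MoKCs 1 to 3. Of 6 cathepsins that degrade matrix, all tested, the median log2 fold change was 0.15, 0.22 and 0.53 in the 3 comparisons. That of all genes was -0.04, 0.02 and -0.01. Ctsd (0.64) and Ctsz (0.48) rose in MCD_EmKCs against Chow_EmKCs (limma adjusted p = 0.00161 and 0.022). In MCD_MoKCs against MCD_EmKCs, Ctsk, the collagenolytic cathepsin K of osteoclasts, was higher by 4.85 and Ctss by 0.64 (limma adjusted p = 0.000947 and 0.00267), of which Ctss was lost without MCD_MoKCs 1 to 3 (limma adjusted p = 0.0665). Against Chow_EmKCs, Ctsk (4.59), Ctsd (0.85) and Ctsz (0.71) were higher (limma adjusted p at most 0.000972) and passed without those libraries. No cathepsin was called lower in any of the 3 comparisons. The protease and cathepsin calls with all libraries stand beside 2.5%, 5.64% and 8.68% of all genes higher and 1.58%, 4.9% and 8.08% lower.

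Among 16 matrix genes whose products MMPs cut or bind, 9 were tested. In MCD_EmKCs against Chow_EmKCs none rose and Col18a1 fell (-4.05, limma adjusted p = 0.0424). Col18a1 overlaps Slc19a1, which had more reads. In MCD_MoKCs against MCD_EmKCs 3 were higher and none lower: fibronectin (Fn1) by 7.37, osteopontin (Spp1) by 5.59 and perlecan (Hspg2) by 4.00 (limma adjusted p = 6.91e-06, 0.0066 and 0.01). Their levels in MCD_EmKCs were low or uneven, at 51.4 ± 120, 201 ± 235 and 5.93 ± 5.73 normalised reads (mean ± SD). Hspg2 was at 49.3 ± 44.4 in Chow_EmKCs, from which MCD_MoKCs did not differ by a call (1.71, limma adjusted p = 0.293). Against MCD_EmKCs, Hspg2 did not pass without MCD_MoKCs 1 to 3 (limma adjusted p = 0.147), and Fn1 and Spp1 did. Against Chow_EmKCs 5 were higher and 1 lower, with the largest changes for Spp1 (8.68), Col18a1 (-4.85) and Col4a2 (4.52) and limma adjusted p at most 0.00444. Without those libraries Spp1, Col4a2 and Fn1 were higher and Col18a1 was lower, and Col3a1 and Col4a1 were lost. The counts stand beside 2.5%, 5.64% and 8.68% of all genes higher and 1.58%, 4.9% and 8.08% lower. The median log2 fold change of the tested matrix genes was 1.30, 1.92 and 2.62 in the 3 comparisons, against -0.04, 0.02 and -0.01 for all genes.

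For each tested member the 3 genes with the most similar level were found by Pearson's r of log2(normalised reads + 1) over all 19 libraries. These libraries share the group means, so r is given also after the means were taken out. Mmp12 was most like Vsig8 (r = 0.990, and 0.703 within groups), Cd36 (0.982, 0.737) and Gdf15 (0.972, 0.0866). Mmp14 was most like Fam20c (0.990, 0.817), Gpnmb (0.984, 0.603) and Dcstamp (0.969, 0.431). Mmp19 had Ccl4 (0.963, 0.507), Trem2 (0.958, 0.408) and Tnfsf9 (0.958, 0.540) nearest, and Mmp13 had Atp8b4 (0.959, 0.866), 4930430E12Rik (0.919, 0.583) and Maff (0.912, 0.563). For Timp2 these were Paqr9 (0.868, 0.815), Mlkl (0.851, 0.715) and Cd47 (0.802, 0.846). For Timp3 the nearest was its overlapping gene Syn3 (0.949, 0.930), then Tspan7 (0.841, 0.799) and C1qtnf1 (0.789, 0.729). The nearest genes of Mmp8 were Eif1ax (0.857, 0.707), Ppm1b (0.838, 0.772) and Thbs1 (0.823, 0.609). Those of Mmp9 were Hs1bp3 (0.790, 0.789), Hist1h4c (0.741, 0.764) and Gnpda2 (0.737, 0.720), and those of Mmp2 were Pofut1 (0.773, 0.754), Pla1a (0.761, 0.712) and Nbas (0.733, 0.687). Among the members themselves, Mmp12, Mmp14, Mmp19 and Mmp13 had pairwise r of 0.803 to 0.916, and of -0.438 to 0.444 within groups.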

How the data were processed

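The authors deposited 1 table of normalised read signal, with 19 library columns. Per the submitters' processing notes, STAR, DESeq2 and mm10 were used. How reads were counted, and with which annotation, is not given in the sources used. Of 117 genes with at least 2000 reads inside an intron of an opposite-strand gene, 95 (81.2%) had a host with at least as many reads in every library. Whether reads in introns or on the other strand were counted for a gene was not tested further. Each deposited column held whole multiples of 1 step (tolerance 0.001 reads), so reads could be recovered; 100% of the values were whole. Reads carry no molecular identifiers. Standard SMART-seq does not mark the strand.

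The test was limma 3.58.1 in R 4.3.3, with trended and robust variances, on log2(value + 1). It was fitted on 14875 genes with all 19 libraries and 1 mean per group. Tests were two-sided at 0.05, adjusted by Benjamini and Hochberg's method over those genes. edgeR 4.0.16 and DESeq2 1.42.0 on the recovered reads were alternatives. Only the limma fit was run on simulated data, and only for MCD_EmKCs against Chow_EmKCs. The edgeR test called 550, 1303 and 2096 genes in the 3 comparisons. Replicates were taken as unpaired.

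Members and lists were chosen with earlier results of these data known. Named were all 10 members, the called genes among other MMPs and TIMPs, up to 3 called genes per other list by size of change, Cd63, Plaur, Reck, and each tested member's 3 nearest genes. Others (such as Mmp27 and overlapping genes) were named after their values were seen. Gene positions and lengths come from GENCODE M21, promoters from RefSeq. The values of a gene counted in the list of MMP activators and receptors are not reported here.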

Additional observations from a re-analysis of the deposited data

Results flagged for a closer look

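In 4 of the 30 combinations of member and group, 1 library lay far from the others by Dixon's test. The test flags about 1 in 20 groups by chance when values are normally distributed. It was run on untransformed normalised reads, with zeros in some groups, so that rate may not hold here. Mmp19 in Chow_EmKCs 1 was at 626 normalised reads, while the other 5 Chow_EmKCs libraries were at 224 to 264, and the group mean without it was 247 ± 19 (SD, n = 5) in place of 310.2. Mmp9 in MCD_MoKCs 2 was at 719, while the other 6 were at 89.2 to 209. Timp1 in Chow_EmKCs 4 was at 11.8, while the others were at 0 to 3.10. Timp3 in Chow_EmKCs 3 was at 457, while the others were at 0 to 160.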

How the results depend on the processing

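Under the alternatives, the calls of Mmp12, Mmp14 and Mmp13 in MCD_EmKCs against Chow_EmKCs, of Mmp14 and Mmp19 in MCD_MoKCs against MCD_EmKCs, and of Mmp12, Mmp14, Mmp19 and Mmp13 in MCD_MoKCs against Chow_EmKCs kept their direction and stayed past the threshold in every setting run. In MCD_MoKCs against MCD_EmKCs, Mmp13 and Timp2 also passed with a pseudocount of 5, with edgeR and with DESeq2. Mmp8 passed there only with the pseudocount of 5. Over all 13 other settings the genes called in that comparison ran from 565 to 1846, against 1568 in the main fit. Genes called went from 607 to 179 within libraries numbered up to 33 and 263 within those from 37 for MCD_EmKCs against Chow_EmKCs, from 1568 to 870 and 565 for MCD_MoKCs against MCD_EmKCs, and from 2493 to 1257 and 1288 for MCD_MoKCs against Chow_EmKCs; these fits hold fewer libraries. Without MCD_MoKCs 1 to 3, an alternative chosen after seeing the data (as were the sums over all MMP genes and the all-exon lengths), 1010 genes were called against MCD_EmKCs. The numbers in the titles do not pair the libraries (correlations of same-numbered deviations -0.0743 to 0.0759, best with the own number in 2, 3 and 2 of 6). With the replicate block 608, 1658 and 2474 genes were called in MCD_EmKCs against Chow_EmKCs, MCD_MoKCs against MCD_EmKCs and MCD_MoKCs against Chow_EmKCs, and Mmp12 in MCD_MoKCs against MCD_EmKCs missed the threshold under the block (0.93, limma adjusted p = 0.088), while Timp2 passed it (-0.58, limma adjusted p = 0.0274). Timp2 in MCD_MoKCs against MCD_EmKCs passed in 8 of 13 other settings and when 5 of 19 libraries were left out singly. Signs turned only for differences that were not called. For MCD_EmKCs against Chow_EmKCs, Mmp8 was at -1.32 and Timp2 at 0.014 within the set up to 33, and Mmp2 at 0.10 within the set from 37. For MCD_MoKCs against MCD_EmKCs, Mmp9 was at -0.048 within the set from 37 and at -0.17 without MCD_MoKCs 1 to 3. Leaving out each library in turn gave 468 to 620, 1288 to 1596 and 2193 to 2590 genes called and 4, 3 to 4 and 6 members called, in the order of MCD_EmKCs against Chow_EmKCs, MCD_MoKCs against MCD_EmKCs and MCD_MoKCs against Chow_EmKCs. In those fits Mmp2 ran from -0.52 to 0.24 and Timp2 from -0.27 to 0.0061 in MCD_EmKCs against Chow_EmKCs, and Mmp9 from -0.012 to 0.72 in MCD_MoKCs against MCD_EmKCs. TMM scaling moved the median of all genes by -0.0141 to 0.00183. The cause of these changes was not tested. Depth limits Timp1, Mmp8 and Mmp13 in Chow_EmKCs, with 19, 51 and 178 reads over 6 libraries.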
